A study of Mus musculus with 24 samples.

Results

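Activins are dimers of inhibin beta subunits, which are encoded by Inhba and Inhbb. They bind a type II receptor, Acvr2a or Acvr2b, which recruits and phosphorylates a type I receptor. Acvr1b and Acvr1c are the type I receptors of activin and related ligands, and they pass the signal on to Smad2 and Smad3. Acvr1 is best known as a type I receptor of bone morphogenetic proteins. Follistatin (Fst) and follistatin-like 3 (Fstl3) are secreted proteins that bind activins and keep them from their receptors. In the hippocampus, Inhba is known as a gene induced by neuronal activity. The 9 genes named here were the subject of the analysis, and each matched 1 row of the 55471 genes in the deposited table. They were chosen by name around Acvr1c, which stands on the study's list of genes with lower levels after loss of CBP. That list was drawn in part from the genotype comparison in standard cages (SC), so the values of all 9 genes in that comparison are given as a description, without a test.

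The data are RNA counts from the hippocampus of 12 female C57BL/6J mice aged 3 to 6 months, with 3 mice in each of 4 groups. CBP-ifKOs carried floxed alleles of Crebbp, the gene for the acetyltransferase CBP, and the inducible recombinase CaMKIIα-creERT2. Control mice were littermates without the recombinase. Mice of both genotypes received 5 intragastric doses of tamoxifen at 20 mg/ml in corn oil, and they were housed in SC or in an enriched environment (EE). The CaMKIIα promoter is active in excitatory neurons of the forebrain, so glia, vessels and interneurons of the same tissue are expected to keep the gene. Library totals lay between 26874015 and 27971488 counts in control mice and between 28582210 and 37448388 in CBP-ifKOs, so depth differed by genotype. All CBP-ifKO counts were even, whereas between 54.0% and 55.1% of nonzero counts were odd in control libraries. At a floor of 3 counts the lowest level readable lay from 0.0801 to 0.112 CPM (the count share of a gene in its library, scaled), which covers counting error alone. The CBP-ifKO counts are thus all multiples of 2, and the cause was not tested. Divided by 2, their totals lie between 14291105 and 18724194, below those of control mice, and a floor of 6 counts in these libraries is between 0.160 and 0.210 CPM.

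The deleted gene and the recombinase were examined first as a check of the labels. Crebbp (ENSMUSG00000022521, chromosome 16 from 4081328 to 4213997 of GRCm38) had 73.9, 81.9 and 70.7 CPM in the control mice in SC and 50.6, 51.6 and 50.0 CPM in the CBP-ifKOs in SC. In EE the values were 72.3, 77.1 and 69.6 CPM in control mice and 44.5, 48.3 and 46.7 CPM in CBP-ifKOs. Reads assigned to Esr1, the gene whose ligand-binding domain is part of creERT2, lay between 67.0 and 81.7 CPM in the 6 CBP-ifKOs and between 3.47 and 5.82 CPM in the 6 control mice. No library went against its genotype label in these genes.

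Levels of different genes were compared per length, as normalized CPM per kilobase of exon (RPKM). In control mice in SC the receptor genes Acvr1b, Acvr2a and Acvr1 stood at the top, with 28.5 ± 1.38, 14.0 ± 1.69 and 9.33 ± 0.742 RPKM (SD, n = 3). Acvr1c came next with 2.38 ± 0.139 RPKM, followed by the ligand genes Inhbb with 2.16 ± 0.317 RPKM and Inhba with 1.28 ± 0.102 RPKM. Acvr2b, Fst and Fstl3 were the lowest, with 0.482 ± 0.444, 0.334 ± 0.0533 and 0.122 ± 0.0700 RPKM. Between neighbours in this order, the ranges of Acvr1c and Inhbb overlapped, as did those of Acvr2b and Fst, and the other neighbours did not overlap. The first 3 places and the last place were held by these genes in each of the 4 groups. In CBP-ifKOs in SC, Acvr1c stood below Inhbb, with 1.48 ± 0.236 against 1.87 ± 0.203 RPKM and no overlap. In EE it stood above Inhbb in both genotypes without overlap.

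**Figure D1:**
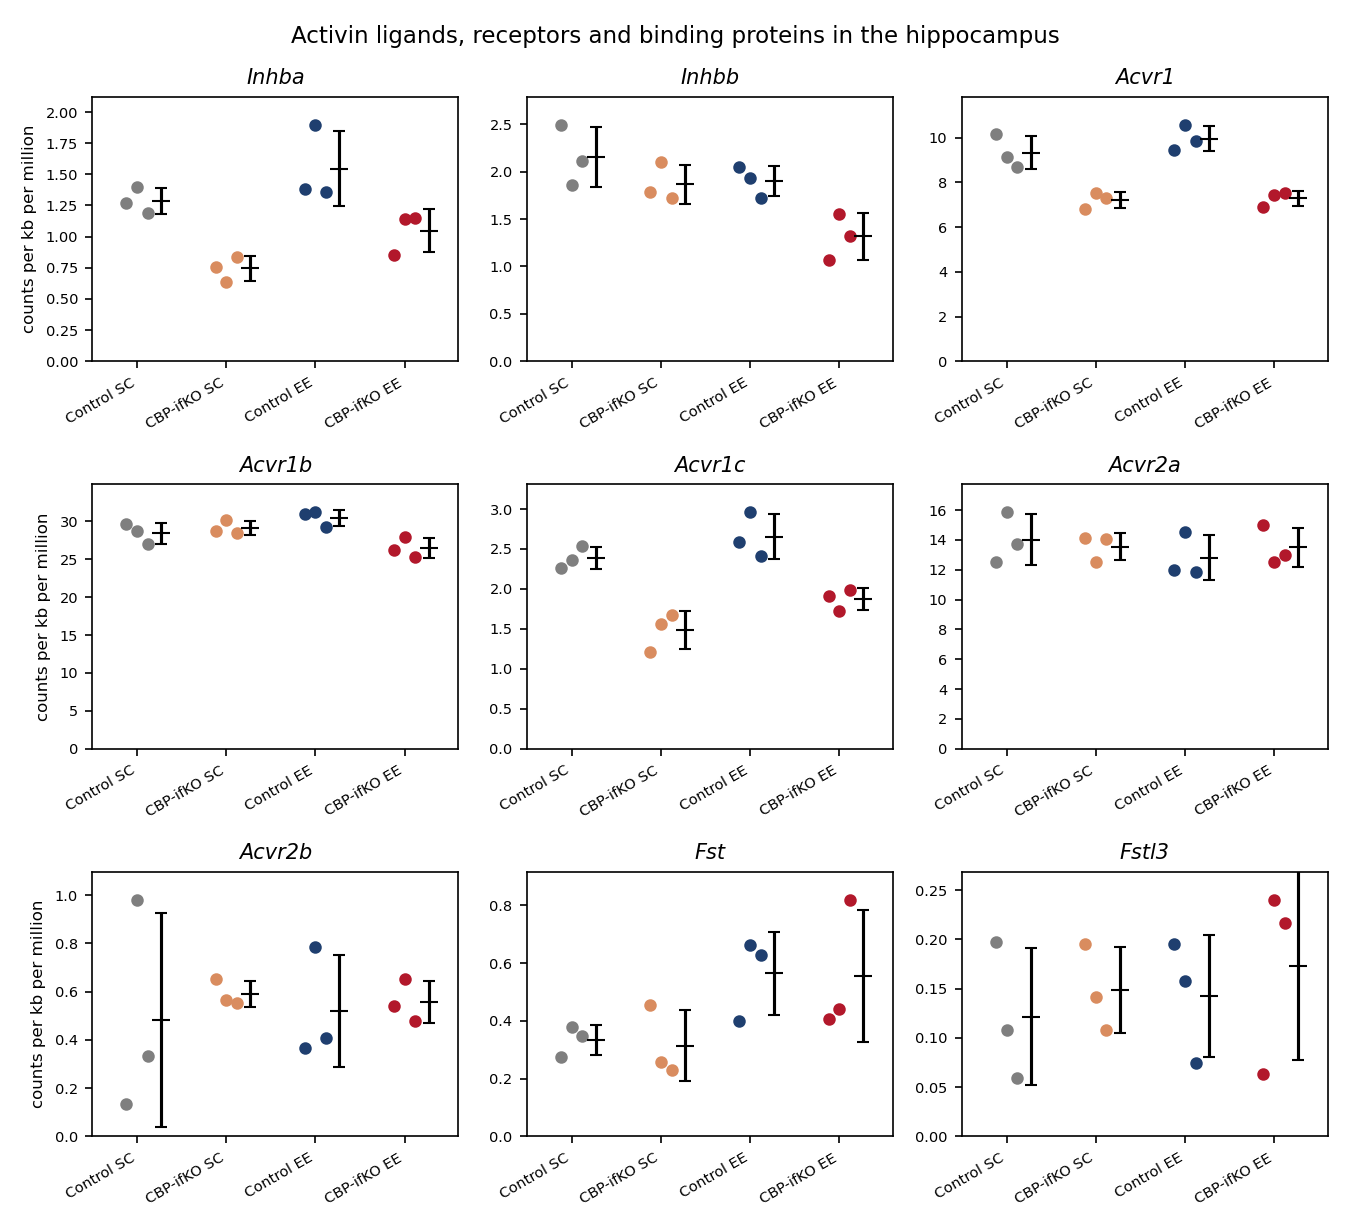
Levels of the 9 genes in single mice, in RPKM, with control mice and CBP-ifKOs in SC and in EE along the horizontal axis. Points are mice, and the bar beside them is the mean ± SD of 3 mice. In both housings the Inhba, Acvr1 and Acvr1c points of CBP-ifKOs lie below all control points. The SC values bear on the choice of Acvr1c, and the share of all genes without overlap is not given.

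The effect of genotype was tested in the 6 EE mice. The genes were chosen with earlier results of these data known, so this test is not independent of the choice. Acvr1 and Acvr1c were lower in CBP-ifKOs, and both are type I receptor genes. These were 2 of the 9 genes, and 0 were called higher. An unadjusted p below 0.05 was found for 5 of the 9 and for 3448 of the 17625 genes. Without CBP-ifKO replicate 2 only 1 of the 9 was called. Genes were called at an adjusted p below 0.05 in edgeR's quasi-likelihood test over all 17625 genes that passed the expression filter, a filter that all 9 genes passed. Over all these genes 623 (3.53%) were called lower and 182 (1.03%) higher. The median log2 fold change of the 9 genes was -0.19, against 0.01 over all genes tested. Where groups are said below not to overlap, this describes the mice, and the share of all genes without overlap is not given. The total of 805 called genes was 285 without control replicate 3 and 431, 447 and 286 without CBP-ifKO replicates 1, 2 and 3. DESeq2 called 1296 genes, among them 5 of the 9 genes, as described below. A lower level in whole tissue can reflect fewer cells that express a gene or less RNA per cell, and these cannot be told apart here.

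Acvr1c encodes a type I receptor for activins and for ligands such as Nodal. It lies on chromosome 2 from 58267453 to 58357895 on the minus strand (ENSMUSG00000026834), and 168 of its 9292 exonic bases are shared with Gm13544 on the opposite strand. In EE its level was 2.59, 2.96 and 2.42 RPKM in control mice and 1.91, 1.72 and 1.99 RPKM in CBP-ifKOs. Every CBP-ifKO lay below every control mouse. The log2 fold change was -0.49 (standard error, SE, 0.10), with an adjusted p of 0.0151 from edgeR's quasi-likelihood test. Without CBP-ifKO replicate 2, the mouse with the lowest value, the log2 fold change was -0.44 and the adjusted p from edgeR was 0.0639. Across the 13 alternatives the adjusted p ranged from 1.51e-05 to 0.0639. Gm13544 had at most 0.0122 CPM on average in any of the 4 groups.

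In SC, where the values bear on the choice of the gene, Acvr1c had 2.26, 2.36 and 2.54 RPKM in control mice and 1.22, 1.56 and 1.67 RPKM in CBP-ifKOs. The CBP-ifKO values were again all lower, and the fitted log2 fold change was -0.69. In this comparison 4.02% of the 17532 genes tested were called lower and 1.51% higher by edgeR, and nothing is read from these shares for the 9 genes. The total of 968 called genes in SC was 637, 1908 and 435 without control replicates 1, 2 and 3 and 404, 399 and 433 without CBP-ifKO replicates 1, 2 and 3. Of the 9 genes, 8 passed the expression filter in SC, and Fstl3 did not.

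Acvr1 (ENSMUSG00000026836) lies next to Acvr1c on chromosome 2, from 58388644 to 58567157 on the minus strand. In EE it had 9.46, 10.6 and 9.83 RPKM in control mice and 6.89, 7.42 and 7.53 RPKM in CBP-ifKOs. The groups did not overlap. The log2 fold change was -0.44 (SE 0.07), with an adjusted p of 0.00495 from edgeR, and the highest adjusted p over the 13 alternatives was 0.0295. In SC the values were 10.1, 9.15 and 8.70 RPKM in control mice and 6.82, 7.53 and 7.32 RPKM in CBP-ifKOs, a fitted log2 fold change of -0.37 given as a description. The values thus lay below the controls in all 6 CBP-ifKOs.

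Acvr1b, the most abundant of the 9 genes and the main type I receptor of activins, lies on chromosome 15 from 101174067 to 101213684 (ENSMUSG00000000532). In EE it had 31.0, 31.2 and 29.2 RPKM in control mice and 26.2, 27.9 and 25.3 RPKM in CBP-ifKOs. The groups did not overlap, but the log2 fold change of -0.19 (SE 0.06) had an adjusted p of 0.0976 in edgeR and was not called. DESeq2's Wald test gave an adjusted p of 0.0417 and the edgeR fit of all 12 mice gave 0.0423, within a range of 0.0417 to 0.324 over the 13 alternatives. In SC the ranges overlapped, with 28.5 ± 1.38 RPKM in control mice and 29.1 ± 0.913 RPKM in CBP-ifKOs (SD, n = 3).

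The level of Acvr1c was then set against its relatives within each mouse. Acvr1c made up 6.15 ± 0.412% of the summed RPKM of Acvr1, Acvr1b and Acvr1c in control mice in EE and 5.27 ± 0.561% in CBP-ifKOs in EE (SD, n = 3). In SC the shares were 5.96 ± 0.638% and 3.91 ± 0.573%. On the log2 scale the ratio of Acvr1c to Acvr1b in EE was -3.53 ± 0.110 in control mice and -3.82 ± 0.181 in CBP-ifKOs, and every CBP-ifKO lay below every control. The difference was -0.30 (two-sided exact permutation test, p = 0.1, the smallest that 3 mice against 3 allow, and 0.2 after Benjamini-Hochberg adjustment over 2 ratios), so this design could not reach 0.05. Without CBP-ifKO replicate 2 the difference was -0.20. The ratio of Acvr1c to Acvr1 in EE was -1.87, -1.84 and -2.02 in control mice and -1.85, -2.11 and -1.92 in CBP-ifKOs, with overlapping values. This difference was -0.05 (exact permutation p = 0.6, adjusted 0.6), and it ran from -0.11 without control replicate 3 to 0.02 without CBP-ifKO replicate 2. In SC, as a description, the ratio to Acvr1b was lower by a difference of -0.73 and the ratio to Acvr1 by a difference of -0.33, with overlap in the latter.

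Both ligand genes had lower values in CBP-ifKOs in EE without being called. Inhba, the gene of the beta A subunit of activin A, lies on chromosome 13 from 16011851 to 16031621 (ENSMUSG00000041324). It had 1.39, 1.90 and 1.36 RPKM in control mice in EE and 0.849, 1.14 and 1.15 RPKM in CBP-ifKOs in EE. The groups did not overlap, and control replicate 2 stood above the others of its group. The log2 fold change was -0.55 (SE 0.16), for which edgeR gave an adjusted p of 0.0848, and without control replicate 2 it was -0.38 (edgeR, adjusted p = 0.191). Over the 13 alternatives the adjusted p ranged from 0.00325 to 0.215, and Inhba was not called in 9 of them. Among the others were DESeq2, edgeR without the filter on low counts and edgeR in the fit of all 12 mice. In SC it had 1.27, 1.40 and 1.19 RPKM in control mice and 0.758, 0.639 and 0.837 RPKM in CBP-ifKOs, a fitted log2 fold change of -0.78 given as a description.

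Inhbb, the gene of the beta B subunit, lies on chromosome 1 from 119415465 to 119422248 (ENSMUSG00000037035). In EE it had 2.05, 1.93 and 1.73 RPKM in control mice and 1.07, 1.56 and 1.33 RPKM in CBP-ifKOs. Again the groups did not overlap, with a log2 fold change of -0.52 (SE 0.15) and an adjusted p of 0.0803 from edgeR. It was called by DESeq2 (adjusted p = 0.0292), without the filter on low counts and in the edgeR fit of all 12 mice, over a range of 0.0161 to 0.211 in the 13 alternatives. In SC the genotypes overlapped, with 2.16 ± 0.317 RPKM in control mice and 1.87 ± 0.203 RPKM in CBP-ifKOs (SD, n = 3).

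The type II receptor genes and the genes of the activin-binding proteins were not called between genotypes in EE, and their groups overlapped. Acvr2a (chromosome 2 from 48814109 to 48903269), the more abundant type II receptor gene, had 12.8 ± 1.52 RPKM in control mice in EE and 13.5 ± 1.31 RPKM in CBP-ifKOs in EE (SD, n = 3). Its log2 fold change was 0.09 (interval of 2 standard errors from -0.10 to 0.27), and it ran from 0.00326 without CBP-ifKO replicate 1 to 0.19 without control replicate 2. Acvr2a shares 446 of its 5686 exonic bases with Orc4 on the opposite strand, which had 76.0 CPM in each EE group. Acvr2b (chromosome 9 from 119402118 to 119434995) ranged from 0.132 to 0.981 RPKM among the 3 control mice in SC, with control replicate 2 at the top. In CBP-ifKOs it ranged from 0.479 to 0.654 RPKM across the 6 mice. The log2 fold change of Acvr2b in EE was 0.11 (interval from -0.45 to 0.68), and it was -0.09, -0.03 and -0.02 without control replicates 1 and 3 and CBP-ifKO replicate 2 and 0.53 without control replicate 2. The fitted value in SC was 0.30, and it was -0.14, 1.34 and 0.10 without control replicates 1, 2 and 3.

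Fst (chromosome 13 from 114452290 to 114458951) had 0.565 ± 0.144 RPKM in control mice in EE and 0.556 ± 0.229 RPKM in CBP-ifKOs in EE (SD, n = 3). The log2 fold change was -0.02 (interval from -0.60 to 0.56), and it was 0.11, 0.07, 0.16 and 0.12 without control replicates 2 and 3 and CBP-ifKO replicates 1 and 2 and -0.41 without CBP-ifKO replicate 3. Fstl3 (chromosome 10 from 79777272 to 79782630), the lowest of the 9 genes, had 0.143 ± 0.0617 and 0.173 ± 0.0959 RPKM in the same groups. Its log2 fold change of 0.28 had an interval from -0.78 to 1.33, which includes changes of the size seen for Acvr1c, and it was -0.03 without control replicate 3, -0.05 without CBP-ifKO replicate 2 and 0.68 without CBP-ifKO replicate 1. Fstl3 shares 1157 of its 2445 exonic bases with Prss57 and Fst 115 of 4589 with Gm47040, both on the opposite strand. Prss57 had 0.796 CPM in control mice in EE and 0.650 CPM in CBP-ifKOs in EE. These lie above the 0.349 and 0.424 CPM of Fstl3 in the same groups. Gm47040 had at most 0.0251 CPM on average in any group. The part of Prss57 reads in the Fstl3 values was not tested. Reads from the shared stretches cannot be assigned with certainty where the counting did not use strand.

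**Figure D2:**
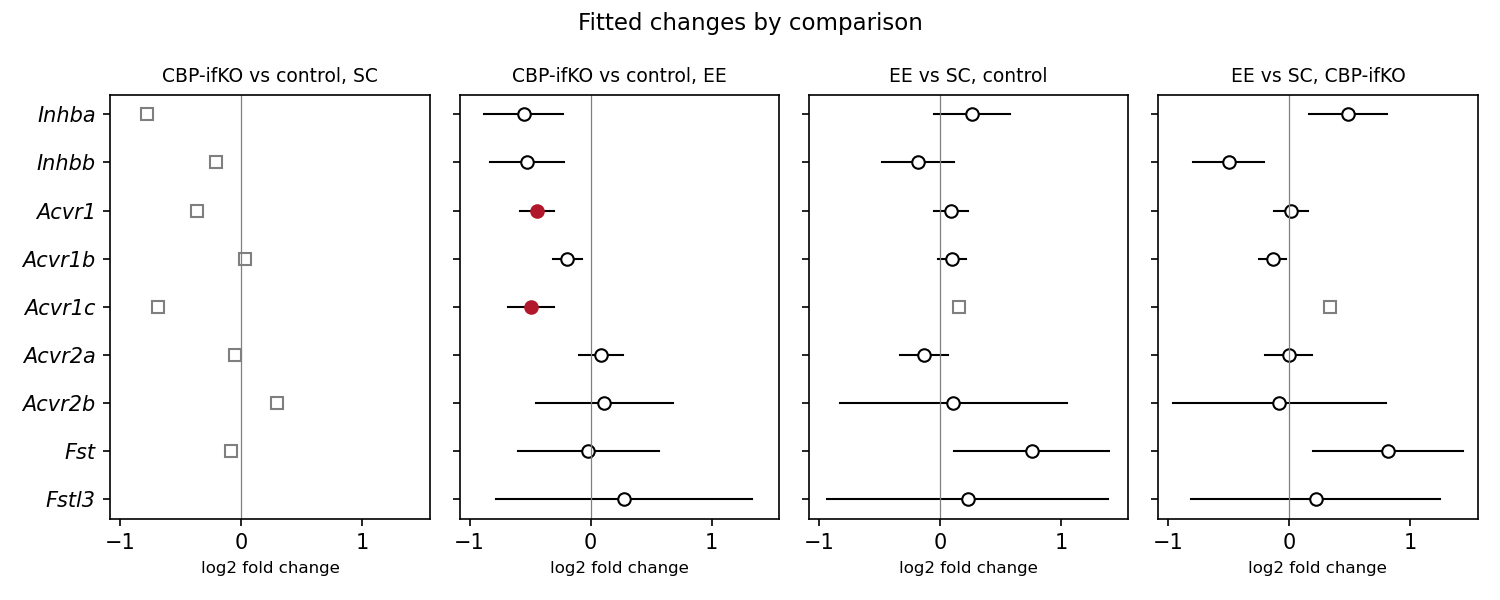
Fitted log2 fold changes of the 9 genes (vertical axis) between genotypes in SC and in EE and between housings in each genotype, from edgeR fits. Circles carry an interval of 2 standard errors, red marks an adjusted p below 0.05, and squares (SC, and Acvr1c between housings) are shown without a test. Red circles stand at -0.44 for Acvr1 and -0.49 for Acvr1c in EE. Fstl3 did not pass the filter in SC.

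Housing was compared within each genotype to ask whether an enriched environment moved these genes. The comparisons were made in a fit of all 12 mice and 18251 genes. They share the SC mice whose values bear on the choice of Acvr1c, so Acvr1c is left out of the counts. The other 8 genes were also chosen with earlier results of these data known. Their tests of housing and of the interaction are thus not independent of the choice. In control mice edgeR called 0 of the 8 other genes and 0 (0%) of all genes, while 1 of the 8 and 768 of all genes had an unadjusted p below 0.05. DESeq2 called 0 of the 8 genes and 15 of all genes. EdgeR called 1, 3 and 5 genes without control SC replicates 1 and 2 and control EE replicate 1. In CBP-ifKOs edgeR called 0 of the 8 genes and 2 (0.011%) of all genes, with 4 of the 8 and 1567 of all genes at an unadjusted p below 0.05. DESeq2 called 0 of the 8 genes and 54 of all genes. After division of the CBP-ifKO counts by 2, edgeR called 0 genes in CBP-ifKOs. On undivided counts edgeR called 10 without control SC replicate 2 and 1 without replicate 3 of the controls in SC or in EE. It called 0 without any 1 of the 6 CBP-ifKOs.

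Acvr1c had a fitted log2 fold change from SC to EE of 0.15 in control mice and of 0.34 in CBP-ifKOs. Because the gene was selected on low values in the CBP-ifKOs in SC, these are a description, and a higher value in EE can follow from that choice. They were 0.07 without control EE replicate 2 and 0.21 without CBP-ifKO SC replicate 1. For Inhba the log2 fold changes were 0.27 in control mice and 0.49 in CBP-ifKOs, and for Inhbb they were -0.18 and -0.50. The adjusted p-values in CBP-ifKOs were 0.455 for Inhba and 0.399 for Inhbb in the edgeR test. In control mice Inhba had 0.09 without EE replicate 2, and Inhbb had -0.07 and -0.28 without SC replicates 1 and 2 and -0.12 without EE replicate 3. Fst had the highest values of all, with 0.76 (interval of 2 standard errors from 0.12 to 1.40) in control mice and 0.81 (interval from 0.19 to 1.43) in CBP-ifKOs. Its adjusted p-values were 0.9994 and 0.491 in edgeR, and without CBP-ifKO EE replicate 3 the latter value of Fst was 0.43. Acvr1 had 0.09 and 0.01, and Acvr1b had 0.10 and -0.14 (adjusted p = 0.517 from edgeR for the latter). In CBP-ifKOs the housings did not overlap for Inhba, Inhbb, Acvr1b and Acvr1c, and in control mice they did not overlap for Fst. The share of all genes without overlap is not given, so nothing is read from this, and Acvr1c is included as a description. For Acvr1 the value in CBP-ifKOs was -0.0272 without SC replicate 1, and it was -0.00149 and -0.0127 without EE replicates 2 and 3. In control mice Acvr1 ran from 0.05 without SC replicate 3 to 0.16 without SC replicate 1, and Acvr1b had 0.06 without SC replicate 3.

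The difference between genotypes in the housing response was tested directly as an interaction. EdgeR called 0 of the 8 genes other than Acvr1c and 0 (0%) of the 18251 genes, with 1 of the 8 and 574 of all genes at an unadjusted p below 0.05, and DESeq2 called 0 genes. For Acvr1c, whose SC values bear on its choice, the interaction is given as a description. It was 0.18 on the log2 scale, and it was 0.06 and 0.28 without CBP-ifKO SC replicates 1 and 3 and 0.12 without control EE replicate 3. For Acvr1b it was -0.24 (interval from -0.40 to -0.08), the only one of the 8 with an unadjusted p below 0.05, and its adjusted p in edgeR was 0.9998.

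Genes around the activin receptors were described from 4 lists with 48 genes, of which 42 passed the filter in EE. Between genotypes in EE, edgeR called 0 of them higher and 2 lower, Smad3 and Lefty1, and DESeq2 called 4. Over all 17625 genes these counts were 182, 623 and 1296. An unadjusted p below 0.05 was found for 7 of the 42 and for 3448 of all genes. Smad3 encodes a transcription factor that activin receptors phosphorylate. It had 16.9, 18.5 and 15.8 RPKM in control mice in EE and 11.7, 12.3 and 11.5 RPKM in CBP-ifKOs in EE. The CBP-ifKOs were all lower. Smad3 changed by -0.52 on the log2 scale (SE 0.07), and edgeR gave an adjusted p of 0.00182. Among the 20 Smad genes and regulators 19 were tested and 1 was called, with a median log2 fold change of -0.04. The abundant members Ski and Nedd4l, which encode a Smad corepressor and a ubiquitin ligase, had log2 fold changes of -0.12 and -0.19 and were not called. Ppm1a and Zfyve9 had 0.02 and -0.04.

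Lefty1 encodes a secreted antagonist of Nodal. It had 5.00, 4.28 and 5.78 RPKM in control mice in EE and 2.67, 2.70 and 3.41 RPKM in CBP-ifKOs in EE. The groups did not overlap. Lefty1 changed by -0.77 on the log2 scale (SE 0.15), and edgeR gave an adjusted p of 0.0178. The adjusted p for Lefty1 in edgeR was 0.0904 without control replicate 3, 0.0572 without CBP-ifKO replicate 1 and 0.0681 without CBP-ifKO replicate 2. Of the 10 genes listed as other ligands, a list that includes the antagonist Lefty1, 6 were tested. Only 1 of these, Lefty1, was called, and the median was -0.20. The inhibin alpha gene Inha and Gdf11, the most abundant of them, had log2 fold changes of 0.04 and 0.01, and Lefty2 and Nodal had -0.40 and -0.44 at low levels.

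Of the 7 receptor genes of other TGF-beta family ligands 7 were tested and 0 were called by edgeR in EE, with 0 at an unadjusted p below 0.05 and 0 called by DESeq2, and the median was 0.01. Bmpr2, Bmpr1a, Tgfbr1 and Bmpr1b had log2 fold changes of 0.06, 0.06, -0.13 and -0.15. Of the 11 co-receptors, decoys and secreted regulators 10 were tested and 0 were called by edgeR, with 1 at an unadjusted p below 0.05 and 1 called by DESeq2, and the median was -0.06. The most abundant per length, Fstl1, Eng, Fstl5 and Tgfbr3, had values of -0.01, 0.07, -0.11 and 0.09. In both housing comparisons and in the interaction, edgeR and DESeq2 each called 0 of the 42 genes. The numbers at an unadjusted p below 0.05 were 1 in control mice, 4 in CBP-ifKOs and 1 for the interaction, against 768, 1567 and 574 of the 18251 genes.

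Acvr1c and Acvr1 lie 30748 bases apart in the same orientation. Within 500 kb of Acvr1c the annotation lists 15 genes including Acvr1c itself, and 7 of them passed the filter over 12 mice. Upp2, which encodes a uridine phosphorylase, lies on the opposite strand to Acvr1 and extends from 58567298 to 58792971. Between its start and the outermost annotated start of Acvr1 lie 140 bases, and the 2 genes run away from each other. In EE, Upp2 had 31.7 ± 2.69 CPM in control mice and 24.6 ± 0.113 CPM in CBP-ifKOs (SD, n = 3). The 3 CBP-ifKOs lay below the controls, and the change was -0.35 on the log2 scale (SE 0.08), for which edgeR gave an adjusted p of 0.0245. The adjusted p for Upp2 in edgeR was 0.0549 without control replicate 3 and 0.0761, 0.0783 and 0.102 without CBP-ifKO replicates 1, 2 and 3. In SC, as a description, Upp2 had a smaller fitted value of -0.13. The other genes of the window were not called, with log2 fold changes of 0.58 for Gm33594, 0.09 for Ermn, -0.53 for Gm13558 and -0.11 for Ccdc148.

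**Figure D3:**
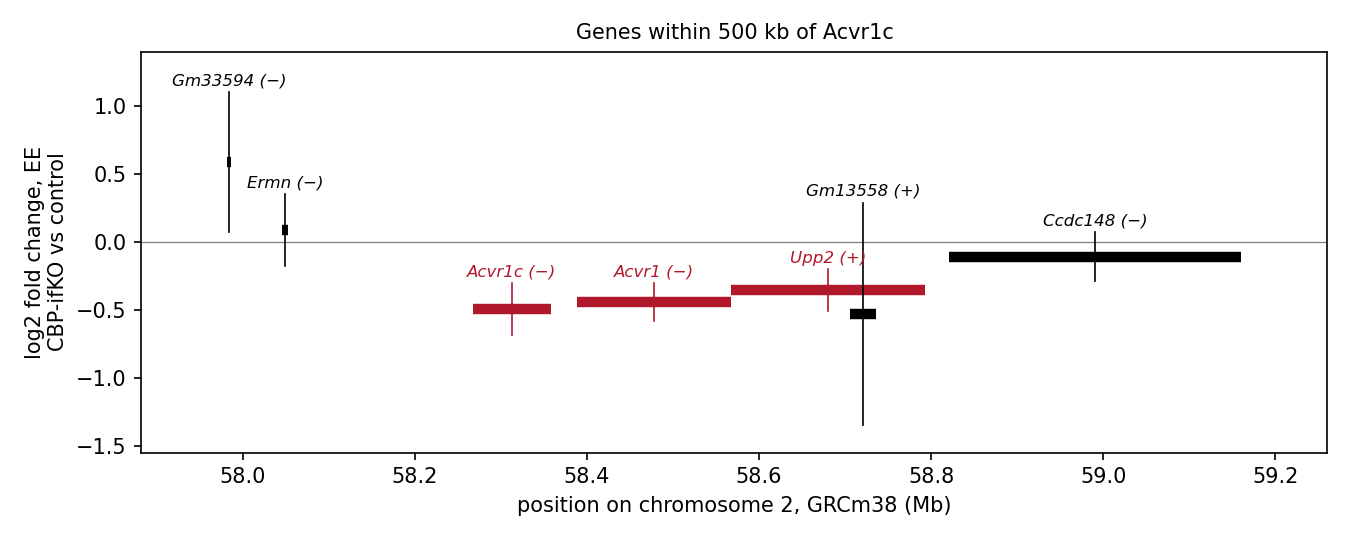
Genes within 500 kb of Acvr1c on chromosome 2 (horizontal axis, Mb of GRCm38) that passed the filter, drawn at their annotated extent and at the height of their log2 fold change between genotypes in EE. Thin lines are intervals of 2 standard errors, strand is in parentheses, and red marks an adjusted p below 0.05. The red genes are Acvr1c, Acvr1 and Upp2, at -0.49, -0.44 and -0.35.

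Because the neighbouring genes Acvr1c, Acvr1 and Upp2 had lower levels in the CBP-ifKOs in EE, sequence upstream of Acvr1c and between Acvr1 and Upp2 is shown, and starts are from RefSeq (GRCm38.p6). Of the 9 genes 8 matched the promoter table at hand, with 9 starts in all, and Fst was not in that table. The windows of 300 bases were searched on both strands for TGACGTCA (the cAMP response element, CRE), its core TGACG, which is part of the full CRE, TGANTCA (AP-1), CAGAC (a Smad-binding box) and GGGCGG (a GC box). Over the 32851 promoters in the table these were present in 1.79%, 20.8%, 7.81%, 49.6% and 35.7%. In the 9 windows the CRE, its core and AP-1 letters were absent, the Smad box was present in 3 and the GC box in 7. The RefSeq window of Acvr1, with 6 GC boxes, lies in annotated exon and is not printed. The printed stretches leave out every base that the annotation places in an exon, and capitals mark GC boxes and Smad boxes on either strand. The first is upstream of the outermost annotated Acvr1c start at chr2:58357896-58358008 on the minus strand, with 80.5% G or C and 3 GC boxes. The second is the stretch between Acvr1 and Upp2 at chr2:58567158-58567297, written on the plus strand, with 71.4% G or C, 1 GC box and 1 Smad box. A match describes the letters and does not show binding.
Acvr1c: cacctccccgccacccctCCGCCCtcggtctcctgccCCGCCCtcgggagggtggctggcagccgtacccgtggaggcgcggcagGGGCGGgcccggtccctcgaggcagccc
Acvr1 to Upp2: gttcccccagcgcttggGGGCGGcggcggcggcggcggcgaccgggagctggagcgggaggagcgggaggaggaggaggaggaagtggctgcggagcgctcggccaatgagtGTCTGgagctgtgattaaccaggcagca

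The genes with the pattern most like that of Acvr1c were sought among 18250 others by Pearson's r of log2 CPM over the 12 mice. They were Sema3e (r = 0.97), Inava (0.96), Nrip3 (0.96), Abi1 (0.95) and Hspa9 (0.94). Between genotypes in EE, Sema3e, a semaphorin gene, had a log2 fold change of -0.45 (edgeR, adjusted p = 0.00592) and Hspa9 of -0.07 (edgeR, adjusted p = 0.534). The 12 mice share the genotype difference, which enters r. After subtraction of the group means the highest was Dynlt3 (0.96), and that of Sema3e was 0.88. For Inhba the genes were Mylk3 (0.95), Krt12 (0.95), Armh4 (0.95), Tfrc (0.94) and Gm42741 (0.94) over the 12 mice. After subtraction of the group means they were Gm37366 (0.94), Kif15 (0.94), Bmpr1b (0.93), Cdk13 (0.92) and Tbc1d15 (0.92). These are the highest of many correlations over few mice, and they are given as a description.

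Cell type markers were read in the same libraries. In EE, 2 of 3 CA1 markers (Wfs1 and Fibcd1) and 2 of 3 CA2 markers (Rgs14 and Pcp4) were called lower by edgeR, as were 1 of 3 CA3 markers (Cpne4) and 2 of 4 dentate granule cell markers (C1ql2 and Dsp). The remaining markers Pou3f1 of CA1 (-0.18) and Amigo2 of CA2 (-0.01) were not called, and their groups overlapped. Over all genes tested in EE, 3.53% were called lower. The study names C1ql2 among the transcripts reduced in CBP-ifKOs. Whether these markers follow the number of cells was not tested. The summed CA1 markers had 413, 388 and 428 CPM in control mice in EE and 249, 258 and 252 CPM in CBP-ifKOs in EE, with Fibcd1 the most abundant. In SC they had 427, 376 and 362 CPM in control mice and 278, 278 and 283 CPM in CBP-ifKOs. The genotypes did not overlap in either housing.

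The summed CA2 markers, led by Rgs14, had 188, 192 and 192 CPM in control mice in EE and 108, 109.7 and 118 CPM in CBP-ifKOs in EE. In SC they had 179.9, 174 and 183 against 102, 110.0 and 109.6 CPM. These sums too were lower in all 6 CBP-ifKOs. The CA3 sum, led by Cpne4, had 286, 314 and 291 against 219, 248 and 239.9 CPM in EE and 265, 281 and 274 against 212, 233 and 221 CPM in SC. The dentate sum, led by Calb1, had 342, 406 and 389 against 319, 315 and 309 CPM in EE and 394, 358 and 397 against 347, 364 and 335 CPM in SC, where the genotypes overlapped. Calb1 itself had a log2 fold change of 0.03 in EE and Prox1 of -0.06, while C1ql2 (-1.91) and Dsp (-0.56) were lower. Of the CA3 markers, Cpne4 had -0.52, and Grik4 (-0.22) and Bok (-0.07) overlapped and were not called. No marker of these lists had a count of 0, and the part of these cell types in the levels of Acvr1c and Acvr1 was not tested.

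Of the markers of excitatory neurons in general, interneurons, astrocytes, oligodendrocytes, microglia, endothelial cells and choroid plexus and of the immediate early genes, 0 were called in EE by edgeR. At an unadjusted p below 0.05 there were 2 choroid plexus markers and 1 marker each of interneurons, astrocytes and microglia, and DESeq2 called 1 interneuron and 1 astrocyte marker. By edgeR 1 of 3 fibroblast markers, Col1a1, was higher (0.72), while Dcn, the most abundant of them, had a log2 fold change of -0.31 and was not called. The summed excitatory neuron markers had 5789 ± 237 CPM in control mice in EE and 5434 ± 393 CPM in CBP-ifKOs in EE (SD, n = 3), and they overlapped. The sums of 3 other cell types lay below every control in EE, between 795 and 825 against 846 to 921 CPM for interneurons, between 1080.1 and 1135 against 1205 to 1277 CPM for astrocytes, and between 137 and 141 against 142 to 161 CPM for microglia. In SC they were also lower without overlap, with means of 789.7 against 869 CPM, 1188 against 1294 CPM and 144 against 157 CPM. Within these sums Slc1a3 (-0.28), Sst (-0.30) and Cx3cr1 (-0.22) had the lowest log2 fold changes in EE, while Gfap and Aqp4 had 0.01 and 0.01 and Slc32a1 and Pvalb had -0.02 and -0.04. The oligodendrocyte, endothelial and fibroblast sums overlapped between genotypes in EE, and the endothelial sum was lower without overlap in SC (107 to 121 against 124 to 133 CPM). The choroid plexus sum was also lower without overlap in SC (33.8 to 37.2 against 43.9 to 51.7 CPM). Its most abundant marker there was Kl, with means of 23.9 CPM in control mice and 27.8 CPM in CBP-ifKOs. Ttr had means of 22.7 and 6.98 CPM in the same groups. As a description, the fitted log2 fold changes in SC were -1.70 for Ttr, -0.28 for Folr1 and 0.22 for Kl. The choroid plexus markers summed to 1209 CPM in control replicate 1 in EE and to between 33.8 and 59.2 CPM in the other 11 libraries. Without that mouse the log2 fold changes in EE were -0.51 for Acvr1c and -0.48 for Acvr1, and edgeR gave adjusted p-values of 0.0244 and 0.00611.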

How the data were processed

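RNA was read as single-end reads of 50 bases, with 2 runs per mouse. The study's methods state that reads were trimmed with Trim Galore 0.6.4, aligned to mm10 with STAR 2.6.1 and filtered by mapping quality. That the runs of a mouse were merged is read from the column names of the deposited counts. Exonic reads were then counted by Rsubread on Ensembl genes, and the raw counts were deposited. Strand use in counting is not given in the sources used here. The tests used edgeR 4.0.16, R 4.3.3 (filterByExpr, TMM, quasi-likelihood F test, Benjamini-Hochberg adjustment at 0.05). Genotype was fitted in the 6 mice of each housing, and housing and the interaction in all 12 mice. RPKM and CPM were computed from TMM-scaled libraries of the 12 mice and the deposited exon lengths. Standard errors are the absolute log2 fold change divided by the square root of F. Coordinates come from GENCODE annotation of GRCm38.

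The members and lists were chosen with earlier results of these data known. Besides the 9 genes, the text names list genes called in a tested comparison, up to 4 more abundant genes per list, up to 5 genes most like Acvr1c and Inhba by each measure, genes within 500 kb of Acvr1c, and markers. Alternatives were DESeq2 1.42.0, its size factors in edgeR, no filter, a filter of 1 CPM in 3 mice, a replicate block, halved CBP-ifKO counts, other mice in the fit and leaving out each mouse. The alternatives for Smad3, Lefty1 and Upp2 were added after their values were seen. Every pair of mice within a group differed by more than sampling noise.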

Additional observations from a re-analysis of the deposited data

How the results depend on the processing

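All counts of calls are at an adjusted p below 0.05. Acvr1 and Smad3 kept their call in EE in all 13 alternatives, and the lower level of Acvr1c in EE kept its direction in all 13 and its call in 12. Of the 9 genes, 2 were called in EE, 5 by DESeq2, 4 without the filter on low counts, 5 in the fit of all 12 mice, and between 1 and 2 with 1 mouse left out. Genes called in SC were 1512 without the filter and between 399 and 1908 with 1 mouse left out. Genes called in EE were 1296 by DESeq2, 1677 without the filter, 1293 in the fit of all 12 mice and between 285 and 1016 with 1 mouse left out. For housing in control mice they were 15 by DESeq2, 145 without the filter, 1 with only the 6 control mice in the fit and between 0 and 5 with 1 mouse left out. For housing in CBP-ifKOs they were 54, 247, 21 and between 0 and 10 in the same order, and 0 after division of the CBP-ifKO counts by 2. For the interaction they were 110 without the filter. With 1 mouse left out the log2 fold changes in EE ran from -0.56 to -0.41 for Acvr1c, from -0.0883 to 0.53 for Acvr2b, from -0.41 to 0.16 for Fst and from -0.0485 to 0.68 for Fstl3, and the difference in the log2 ratio of Acvr1c to Acvr1 ran from -0.11 to 0.0238. For housing in control mice they ran from -0.34 to 1.15 for Acvr2b and from -0.10 to 0.76 for Fstl3. In CBP-ifKOs they ran from -0.0272 to 0.0505 for Acvr1, from -0.0873 to 0.0458 for Acvr2a, from -0.21 to 0.0133 for Acvr2b and from -0.10 to 0.62 for Fstl3. For the interaction they ran from -1.23 to 0.25 for Acvr2b, from -0.33 to 0.43 for Fst and from -0.54 to 0.39 for Fstl3. Replicate numbers were not treated as pairs, because mice of the same number were not all correlated above 0.1. With the number as a block, edgeR called 3 of the 9 genes in EE and 17 genes for housing in CBP-ifKOs, Inhba in EE had an adjusted p of 0.0295, and the interaction of Fstl3 was 0.0141 against -0.0112 without it. The filter of 1 CPM in 3 mice left no value for Fstl3. The cause of these differences was not tested.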
